A study of Mus musculus with 2 samples.

Results

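The Bcl2 family genes described here are *Bax*, *Bak1*, *Bcl2*, *Bcl2l1*, *Bcl2l11*, *Mcl1*, *Bid*, *Bad*, *Bbc3* and *Pmaip1*. They were chosen by name, by matching the Ensembl identifiers of the count files without their version to gene symbols. All 10 matched 1 identifier each, of 54146 identifiers in each file. Their mRNA was counted in mouse embryonic stem (ES) cells derived from the inner cell mass, in 1 library of untreated wild-type cells and 1 library of *Lin28a* knockout cells. *Lin28a* encodes an RNA-binding protein of stem cells that blocks the maturation of let-7 microRNAs. Both cultures grew for 2 days on gelatin with mouse embryonic fibroblast (MEF) feeder cells in LIF/2i medium. According to the study, E14 was the ES line in use, the guide RNA of the CRISPR knockout was directed at the second exon of *Lin28a*, and the libraries came from the wild-type clone a2.1, which had itself been through the transfection, and from the knockout clone a3.5. Each condition is therefore 1 clone and 1 library, and genotype, clone and culture cannot be told apart.

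Proteins of the Bcl2 family decide whether the outer membrane of the mitochondria stays closed. BAX and BAK, the effectors, form the pores through which cytochrome c leaves to start the caspase cascade. BCL2, BCL-XL (*Bcl2l1*) and MCL1, the survival proteins, hold the effectors and the BH3-only proteins in check. The BH3-only proteins, among them BIM (*Bcl2l11*), BID, BAD, PUMA (*Bbc3*) and NOXA (*Pmaip1*), report stress such as DNA damage or loss of growth factors, and much of their control lies in binding, cleavage and protein turnover that an mRNA count does not show. MCL1 is a short-lived protein made from a short-lived mRNA, and the early mouse embryo needs it to implant. Pluripotent cells are known to stand close to the threshold of apoptosis.

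The members share the BH3 motif, the short helix by which one family member grips another, and it is shown because it is the feature that all 3 roles have in common. The coding sequence of each gene (the longest in GENCODE M21, GRCm38) was translated and searched for leucine, any 3 residues, glycine, alanine or serine, aspartate, any residue and a hydrophobic residue. All 10 members held this pattern, against 12.4% of the 21562 genes with a coding sequence, so that the pattern alone is not specific. For 9 members the 48 bases around it are given below, 5′ to 3′ along the mRNA, with the 24 bases of the pattern in capitals.
Bcl2: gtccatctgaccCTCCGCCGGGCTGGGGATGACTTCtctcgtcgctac
Bcl2l1: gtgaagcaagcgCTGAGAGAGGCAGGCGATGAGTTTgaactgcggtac
Mcl1: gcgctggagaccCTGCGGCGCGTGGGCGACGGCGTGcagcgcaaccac
Bax: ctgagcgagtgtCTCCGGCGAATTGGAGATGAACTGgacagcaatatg
Bak1: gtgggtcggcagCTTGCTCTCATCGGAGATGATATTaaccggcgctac
Bid: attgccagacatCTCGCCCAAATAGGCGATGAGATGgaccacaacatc
Bcl2l11: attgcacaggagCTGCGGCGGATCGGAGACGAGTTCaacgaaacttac
Bad: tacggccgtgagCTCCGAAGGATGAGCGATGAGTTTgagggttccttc
Bbc3: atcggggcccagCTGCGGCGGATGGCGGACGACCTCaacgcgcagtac

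On GRCm38 these stretches lie at chr1:106712566-106712613 in exon 1 of *Bcl2* (minus strand), chr2:152829688-152829735 in exon 2 of *Bcl2l1* (minus), chr3:95659424-95659471 in exon 1 of *Mcl1* (plus), chr7:45465988-45466035 in exon 3 of *Bax* (minus) and chr17:27022522-27022569 in exon 4 of *Bak1* (minus). Those of the BH3-only genes lie at chr6:120897280-120897327 in exon 4 of *Bid* (minus), chr2:128147138-128147185 in exon 3 of *Bcl2l11* (plus), chr19:6950780-6950827 in exon 3 of *Bad* (plus) and chr7:16313761-16313808 in exon 3 of *Bbc3* (plus). Exons are numbered along the transcript searched.

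Since LIN28A blocks let-7, the stretch after the stop codon of each gene (the longest in the annotation) was also searched for CTACCTC, the match to bases 2 to 8 of let-7, read on the mRNA strand only. Of 10 mature let-7 5p sequences in RefSeq (GRCm38.p6), 9 share that seed. A pair of them is printed with the seed in capitals to show what the match pairs with, from chr13:48538239-48538260 (minus strand) and chr9:106178846-106178867 (plus strand).
mmu-let-7a-5p: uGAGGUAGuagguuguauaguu
mmu-let-7g-5p: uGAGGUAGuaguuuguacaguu
Of the 10 members only *Bcl2l1* held a match, 947 bases after its stop, at chr2:152781182-152781208 (minus strand), and it is shown with the match in capitals.
Bcl2l1: aggggcttccCTACCTCaggcaggaag
Over all genes 8.997% held at least 1 match. The ratio of knockout over wild-type of *Bcl2l1* was 0.858, as given below, and the median of that ratio was 0.994 over 1251 counted genes with a match and 1.005 over 10206 without. An effect of let-7 on these genes was not tested.

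The libraries were made with inDrop, which captures single cells in droplets with barcoded primers and counts each mRNA once, from its 3′ end, by a unique molecular identifier (UMI). Values are CPM, the UMIs of a gene over all UMIs of the kept cells of the library, scaled as is usual for that unit. They are not divided by gene length, so levels of different genes are compared as captured 3′ ends. Barcodes with at least 500 UMIs and at most 20% of them on mitochondrially encoded (mt-) genes were kept, which left 1856 wild-type cells with 11639256 UMIs and 1622 knockout cells with 9340855 UMIs. The median depths were 6140 and 5063.5 UMIs. *Lin28a* was counted at 107 CPM with 1242 UMIs in wild-type cells, against 36.6 CPM with 342 UMIs in knockout cells. The libraries count 3′ ends, so that this does not check the edit itself. All 10 ES markers examined, *Pou5f1* and *Nanog* among them, were counted in both libraries (4496 and 4709 CPM in all), while primitive endoderm markers summed to 13.1 and 13.4 CPM. All 12 fibroblast markers were counted as well, with sums of 2123 and 1258 CPM, and 41 wild-type and 21 knockout cells had at least 0.5% of their UMIs on *Col1a1*, *Col1a2* and *Col3a1* and are called fibroblast-like. *Pou5f1* stood at 34.4 and 166 CPM in those, against 838 and 1014 CPM over all kept cells. With 1 library per condition there is no test. Intervals in parentheses are exact 95% intervals (Poisson for a level, conditional binomial for a ratio, Clopper-Pearson for a share) and cover counting error only, not the spread between cultures. Where a gene had no UMI, the level that is said to be allowed is that of 3 UMIs, while the bars in the plots by RP and mt- share end at the exact upper bound.

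*Mcl1*, *Bax* and *Bid* made up most of the family's mRNA in both libraries, 1 gene from each role. The 10 members together held 9216 wild-type UMIs, 792 CPM (776 to 808), and 7606 knockout UMIs, 814 CPM (796 to 833), which gave a ratio of 1.03 (0.997 to 1.06). The sum of the survival genes, most of which is *Mcl1*, was lower in the knockout library, at 321 CPM against 363 CPM, a ratio of 0.884 (0.843 to 0.927), although *Bcl2* was higher there. The sum of the effectors was higher, at 273 CPM against 228 CPM, a ratio of 1.20 (1.13 to 1.26). The BH3-only genes stood at 221 CPM against 201 CPM, a ratio of 1.10 (1.03 to 1.17).

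**Figure D1:**
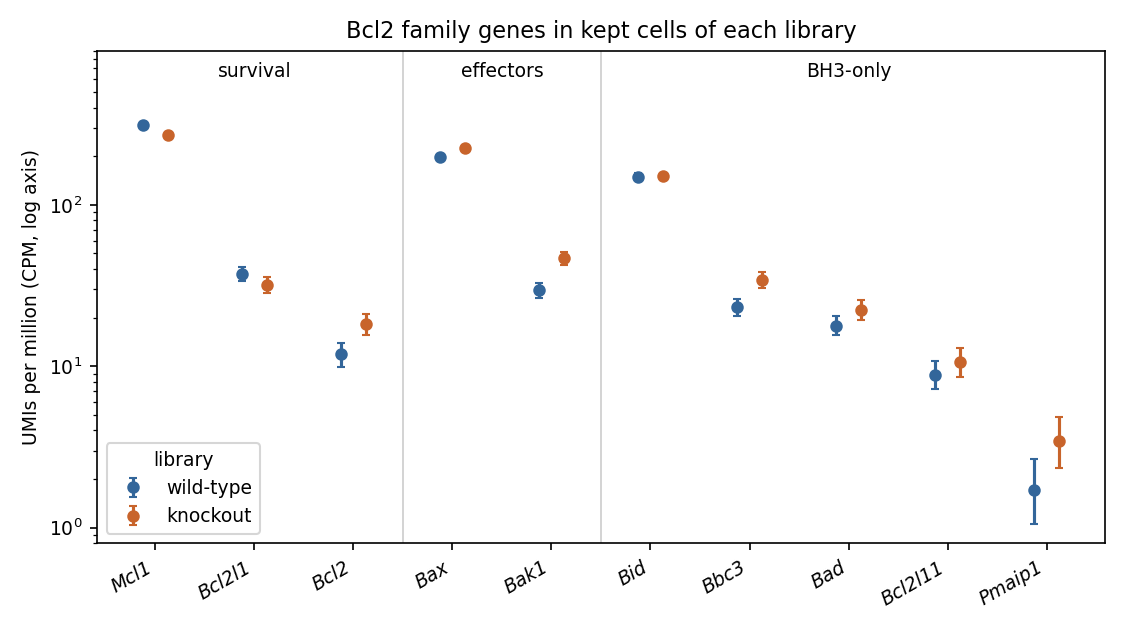
Level of each of the 10 genes in the kept cells, in CPM on a log axis, with 1 point per library and exact 95% Poisson intervals. *Mcl1*, *Bax* and *Bid* lie above 140 CPM in both libraries and the other 7 genes below 50 CPM, with *Pmaip1* lowest at 1.72 and 3.43 CPM.

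Among the survival genes *Mcl1* was by far the most abundant. *Mcl1* (ENSMUSG00000038612.16, chromosome 3 from 95658788 to 95663176, plus strand) had 3654 wild-type UMIs, 314 CPM (304 to 324), and 2529 knockout UMIs, 271 CPM (260 to 282). Of all survival UMIs *Mcl1* held 86.5% (wild-type) and 84.4% (knockout). The ratio of knockout over wild-type was 0.862 (0.819 to 0.908). With each cell taken at 500 UMIs, which gives every cell equal weight, it was 0.691, and in cells of 5000 to under 10000 UMIs only it was 0.740. The ratio was not the same at all depths. It stood at 0.607 (0.392 to 0.94997) in cells of 500 to under 2000 UMIs and 0.612 (0.516 to 0.723) in those of 2000 to under 5000, but at 1.11 (1.01 to 1.21) in the 192 wild-type and 314 knockout cells of 10000 UMIs and over, where *Mcl1* was the higher in knockout cells.

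*Bcl2l1*, whose product BCL-XL guards many cell types from BAX and BAK, lies on chromosome 2 from 152780668 to 152831728 (ENSMUSG00000007659.18, minus strand). It had 434 wild-type and 299 knockout UMIs, 37.3 CPM (33.9 to 41.0) and 32.0 CPM (28.5 to 35.9), and a ratio of 0.858 (0.738 to 0.997), whose interval stops just short of 1. *Mcl1* UMIs outnumbered those of *Bcl2l1* 8.42 to 1 (7.62 to 9.32) in wild-type cells and 8.46 to 1 (7.4999 to 9.57) in knockout ones, a difference well within the intervals.

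*Bcl2*, the founding member of the family, was the scarcest survival gene. On chromosome 1 from 106538178 to 106714274 (ENSMUSG00000057329.7, minus strand), it had 138 wild-type and 170 knockout UMIs, 11.9 CPM (9.96 to 14.0) and 18.2 CPM (15.6 to 21.2). The ratio was 1.53 (1.22 to 1.94), the opposite direction to the other survival genes, and it ranged from 1.40 to 2.11 over the alternatives tried. *Mcl1* outnumbered *Bcl2* 26.5 to 1 (22.3 to 31.6) in the wild-type library and 14.9 to 1 (12.7 to 17.5) in the knockout library.

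Of the effectors, *Bax* was counted several times as often as *Bak1*, and both were higher in the knockout library. *Bax* (ENSMUSG00000003873.11, chromosome 7 from 45461697 to 45466898, minus strand) had 2308 wild-type and 2112 knockout UMIs, 198 CPM (190 to 207) and 226 CPM (217 to 236), a ratio of 1.14 (1.07 to 1.21). *Bak1* (ENSMUSG00000057789.13, chromosome 17 from 27019810 to 27029009, minus strand) had 345 and 436 UMIs, 29.6 CPM (26.6 to 32.9) and 46.7 CPM (42.4 to 51.3). Its ratio of 1.57 (1.36 to 1.82) was past 1.5-fold, as were 10.5% of all genes. It stayed between 1.51 and 1.62 over the 13 alternatives. The count of *Bax* per *Bak1* UMI was 6.69 (5.97 to 7.51) in wild-type cells against 4.84 (4.37 to 5.38) in knockout ones. The count of *Bak1* per *Bcl2l1* UMI, an effector set against a survival gene whose product binds it, was 0.795 (0.688 to 0.918) and 1.46 (1.26 to 1.70). *Bak1* overlaps *Ggnbp1* on the opposite strand, which had 54 and 44 UMIs.

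The BH3-only genes differed widely in level. *Bid*, whose product carries the signal of death receptors to the mitochondria once a caspase has cut it, led with 1737 wild-type and 1401 knockout UMIs (ENSMUSG00000004446.12, chromosome 6 from 120891930 to 120916853, minus strand). It stood at 149 CPM (142 to 156) and 149.99 CPM (142 to 158), a ratio of 1.01 (0.936 to 1.08). *Bid* overlaps *Bcl2l13* on the opposite strand, which had 342 and 322 UMIs, and *Bad* overlaps *Gpr137* in the same way, with 53 and 74 UMIs. Whether the counting used the strand is not given in the sources used here. *Bad*, a sensor of growth factor signalling that is held inactive by phosphorylation, had 208 and 209 UMIs (ENSMUSG00000024959.13, chromosome 19 from 6941861 to 6951899, plus strand), 17.9 CPM (15.5 to 20.5) and 22.4 CPM (19.4 to 25.6), a ratio of 1.25 (1.03 to 1.52) that reached 1.52 with each cell at 500 UMIs.

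*Bbc3* and *Pmaip1* encode PUMA and NOXA, the BH3-only proteins best known as targets of p53. *Bbc3* (ENSMUSG00000002083.13, chromosome 7 from 16308393 to 16318205, plus strand) had 269 wild-type and 319 knockout UMIs, 23.1 CPM (20.4 to 26.04) and 34.2 CPM (30.5 to 38.1), a ratio of 1.48 (1.25 to 1.74). This is just under 1.5-fold, and the alternatives ran from 1.40 to 1.67. *Pmaip1* (ENSMUSG00000024521.7, chromosome 18 from 66458533 to 66465565, plus strand) had only 20 and 32 UMIs, 1.72 CPM (1.05 to 2.65) and 3.43 CPM (2.34 to 4.84), a ratio of 1.99 (1.11 to 3.68). *Bcl2l11* encodes BIM, which can engage every survival protein of the family. It had 103 and 99 UMIs (ENSMUSG00000027381.16, chromosome 2 from 128126038 to 128162547, plus strand), 8.85 CPM (7.22 to 10.7) and 10.6 CPM (8.61 to 12.9), a ratio of 1.20 (0.900 to 1.59) whose interval includes 1. Part of the *Pmaip1* and *Bcl2l11* counts came from fibroblast-like cells and from a single cell, as described further on. Without the fibroblast-like cells the ratio of *Pmaip1* was 3.77.

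All 10 members passed the minimum of 50 UMIs over both libraries, as did 15453 genes in all. *Pmaip1*, with 20 and 32 UMIs, passed only through the knockout library, where it was high, and is left out of the counts that follow. Of the other 9 members 2 had a ratio of at least 1.5 (*Bak1* and *Bcl2*), where 10.5% of all genes did, and 0 had a ratio of at most 1/1.5, where 9.56% did. The interval lay above 1 for 5 of the 9, against 25.0% of all genes, and below 1 for 2 (*Mcl1* and *Bcl2l1*), against 22.3%. The call at 1.5 was lost for *Bcl2* under 4 of the 13 alternatives and gained for *Bbc3* under 3 of them. The median ratio was 1.20 over the 9 and 1.04 over all genes counted, with *Mcl1*, *Bcl2l1* and *Bid* below the latter. Scarce genes gave wider ratios, since of genes with 50 to under 200 UMIs, the range that holds *Pmaip1*, 17.6% reached 1.5, and of those with 200 to under 1000 UMIs, which hold *Bak1*, *Bcl2*, *Bcl2l1*, *Bcl2l11*, *Bad* and *Bbc3*, 8.47% did.

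**Figure D2:**
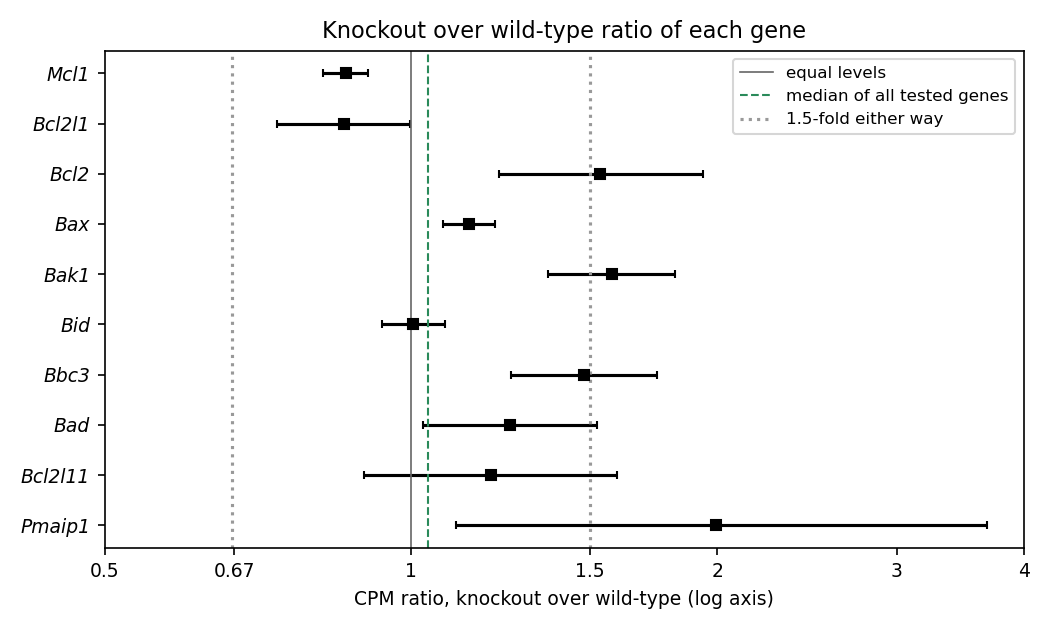
Ratio of CPM, knockout over wild-type, of each gene on a log axis, with exact 95% intervals for counting error. The solid line marks equal levels, the dashed line the median of all 15453 genes (1.04) and the dotted lines 1.5-fold. *Mcl1* and *Bcl2l1* lie below 1 and *Bak1*, *Bcl2* and *Pmaip1* past 1.5.

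The cells of both libraries differ widely in the share of their UMIs on 87 ribosomal protein (RP) genes, the axis on which the study looked for cells with low RP expression. Under 10% lay 1023 wild-type cells and 672 knockout cells. From 5% upwards *Mcl1* and *Bax* ran in opposite directions along this axis, and they did so in both libraries. In wild-type cells *Mcl1* stood at 153 CPM (85.8 to 253) under 5% RP, 405 CPM (389 to 421) at 5 to under 10%, 274 CPM (257 to 292) at 10 to under 15% and 78.7 CPM (66.1 to 93.1) at 15% and over. In knockout cells the same bins gave 88.5, 412, 283 and 58.5 CPM. *Mcl1* was thus highest in cells at 5 to under 10% in both libraries and lower on either side, with its lowest level in the cells richest in RP mRNA. That bin held 226 wild-type cells, 1 of them fibroblast-like, and 355 knockout cells, 5 of them fibroblast-like.

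*Bax* was higher in each successive bin, from 30.7 CPM (6.33 to 89.6) to 154, 211 and 340 CPM (313 to 368) in wild-type cells, and from 67.2 CPM (42.1 to 102) to 174, 235 and 317 CPM (294 to 342) in knockout cells. *Mcl1* outnumbered *Bax* in cells at 5 to under 10% RP, and *Bax* outnumbered *Mcl1* in cells at 15% and over. The bin under 5% holds only 91 wild-type and 233 knockout cells with median depths of 830 and 1214 UMIs and median mt- shares of 4.32% and 5.98%, so its levels rest on 29 or fewer UMIs per gene. Depth was 6397, 5898 and 7331 UMIs in the other wild-type bins and 7720, 5216 and 5852 UMIs in the other knockout bins.

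**Figure D3:**
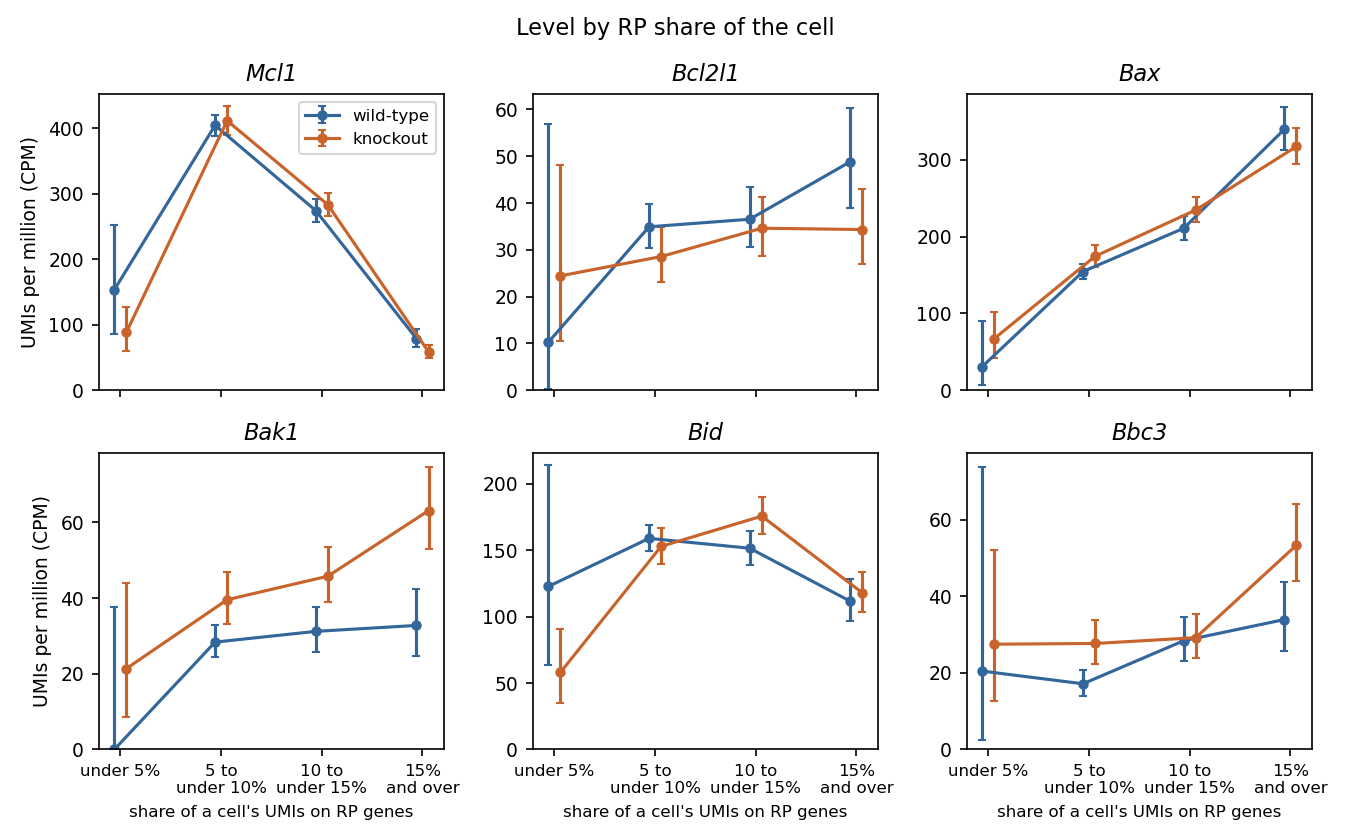
Level of *Mcl1*, *Bcl2l1*, *Bax*, *Bak1*, *Bid* and *Bbc3* in cells grouped by their share of UMIs on RP genes, in CPM with exact 95% Poisson intervals, for each library. *Mcl1* peaks at 405 and 412 CPM at 5 to under 10% and lies below 80 CPM at 15% and over, whereas *Bax* is highest there, at 340 and 317 CPM.

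Taken as one contrast, cells under 10% RP over the rest of the same library, *Mcl1* had a ratio of 1.91 (1.78 to 2.05) among wild-type cells, at 401 against 210 CPM, and of 1.94 (1.79 to 2.10) among knockout cells, at 383 against 197 CPM. *Bax* had 0.603 (0.554 to 0.655) and 0.619 (0.563 to 0.681), and *Bbc3* 0.569 (0.442 to 0.731) and 0.720 (0.563 to 0.915). *Bak1* had 0.880 (0.709 to 1.09) and 0.724 (0.588 to 0.889), *Bcl2l1* 0.851 (0.702 to 1.03) and 0.817 (0.638 to 1.04), and *Bad* 0.650 (0.489 to 0.862) and 0.822 (0.610 to 1.10). *Bcl2* leaned the way of *Mcl1* among knockout cells, at 1.68 (1.23 to 2.30). Among wild-type cells *Bcl2* was at 1.22 (0.861 to 1.75), but at 0.927 with the limit at 15% RP and at 0.861 with it at 5%, the latter on 1 UMI under the limit. *Bid* was near 1, at 1.14 (1.04 to 1.26) and 0.941 (0.843 to 1.05). At this limit *Bid* was the only 1 of the 10 members whose contrast differed between the libraries beyond counting error. The factor was 0.822 (0.712 to 0.949, a normal interval on the log scale). With the limit at 15% RP, *Bid* was at 1.40 among wild-type and 1.35 among knockout cells, above 1 in both.

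Of the members 9 had 50 UMIs in each library. *Pmaip1* did not and is left out of these counts, though its ratio was past 1.5 in both libraries (3.34 and 4.60). In the wild-type library *Mcl1* alone of the 9 reached 1.5, where 30.2% of 12815 genes did, and 3 were at 1/1.5 or less (*Bax*, *Bbc3* and *Bad*), where 12.8% did. In the knockout library *Mcl1*, *Bcl2* and *Bcl2l11* reached 1.5, where 35.9% of 12170 genes did, and 1 (*Bax*) was at 1/1.5 or less, where 14.9% did. Of those that reached 1.5, *Bcl2l11*, at 1.501, was at 1.08 without 1 cell and at 1.02 without cells at 0.1% collagen or more, and *Bcl2* was at 1.43 in cells of 5000 to 10000 UMIs. With the limit at 15% RP, *Bcl2l11* was at 2.84 among wild-type and 2.67 among knockout cells. Cells at 15% and over held only 6 and 10 of its UMIs, and this limit was not tried without the 1 cell. Higher CPM in low-RP cells was common over all genes, with a median ratio of 1.16 and 1.20, while the members' medians were 1.01 and 0.881. With CPM computed outside RP and mt- genes, and without the fibroblast-like cells, every member's value stayed within its interval. In cells of 5000 to under 10000 UMIs the contrast of *Mcl1* was 1.90 and 2.42.

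Compared within RP bins, the interval of *Mcl1* included 1 in the middle bins, which hold most cells. Within the cells at 5 to under 10% RP the knockout over wild-type ratio of *Mcl1* was 1.02 (0.952 to 1.09), and within those at 10 to under 15% it was 1.03 (0.944 to 1.13). It was 0.742 (0.578 to 0.952) at 15% and over and 0.577 (0.300 to 1.16) under 5%. The bins at either end held 355 and 233 knockout cells, against 226 and 91 wild-type cells. *Bak1* was higher in knockout cells in each of the 3 upper bins, with ratios of 1.40 (1.11 to 1.76), 1.47 (1.14 to 1.89) and 1.93 (1.40 to 2.67) from 5% upwards, each interval above 1. Under 5% RP the wild-type cells had no *Bak1* UMI, which allows up to 30.7 CPM, and the knockout cells had 7 UMIs, 21.4 CPM. Other members higher in the knockout library were not so in each of these upper bins. *Bbc3* was at 1.03 (0.773 to 1.37) at 10 to under 15%, but at 1.61 and 1.57 in the bins on either side. At 15% and over *Bcl2* was at 0.954 (0.520 to 1.77) and *Bax* at 0.934 (0.836 to 1.04), while from 5 to under 15% the intervals of both lay above 1.

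The share of UMIs on mt- genes runs against the RP share in these cells, with a median RP share of 13.4% in wild-type and 16.0% in knockout cells under 1% mt- and of 8.27% and 9.05% in those at 2 to under 5%. *Mcl1* stood at 167 CPM (154 to 180) under 1% mt-, 384 CPM (367 to 401) at 1 to under 2%, 409 CPM (384 to 436) at 2 to under 5% and 147 CPM (58.9 to 302) at 5 to 20% in wild-type cells. In knockout cells it stood at 90.5 CPM (79.7 to 102), 319 CPM (298 to 340), 389 CPM (368 to 411) and 182 CPM (137 to 237). Its ratio of knockout over wild-type therefore ran from 0.543 (0.468 to 0.628) in the cells poorest in mt- mRNA through 0.830 (0.768 to 0.898) to 0.951 (0.875 to 1.04) at 2 to under 5% and 1.24 (0.564 to 3.23) in the last bin.

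*Bax* ran the other way, from 273 CPM to 164, 153 and 41.9 CPM in wild-type and from 302 CPM to 205, 195 and 66.2 CPM in knockout cells. *Bbc3* was likewise lower at a higher mt- share, from 30.02 to 21.3 and 16.1 CPM over the first 3 wild-type bins, with no UMI in the last (up to 62.8 CPM), and from 46.0 to 33.6, 25.3 and 26.5 CPM in knockout cells. The bin from 5 to 20% is shallow, at 890 and 1139 UMIs per cell.

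**Figure D4:**
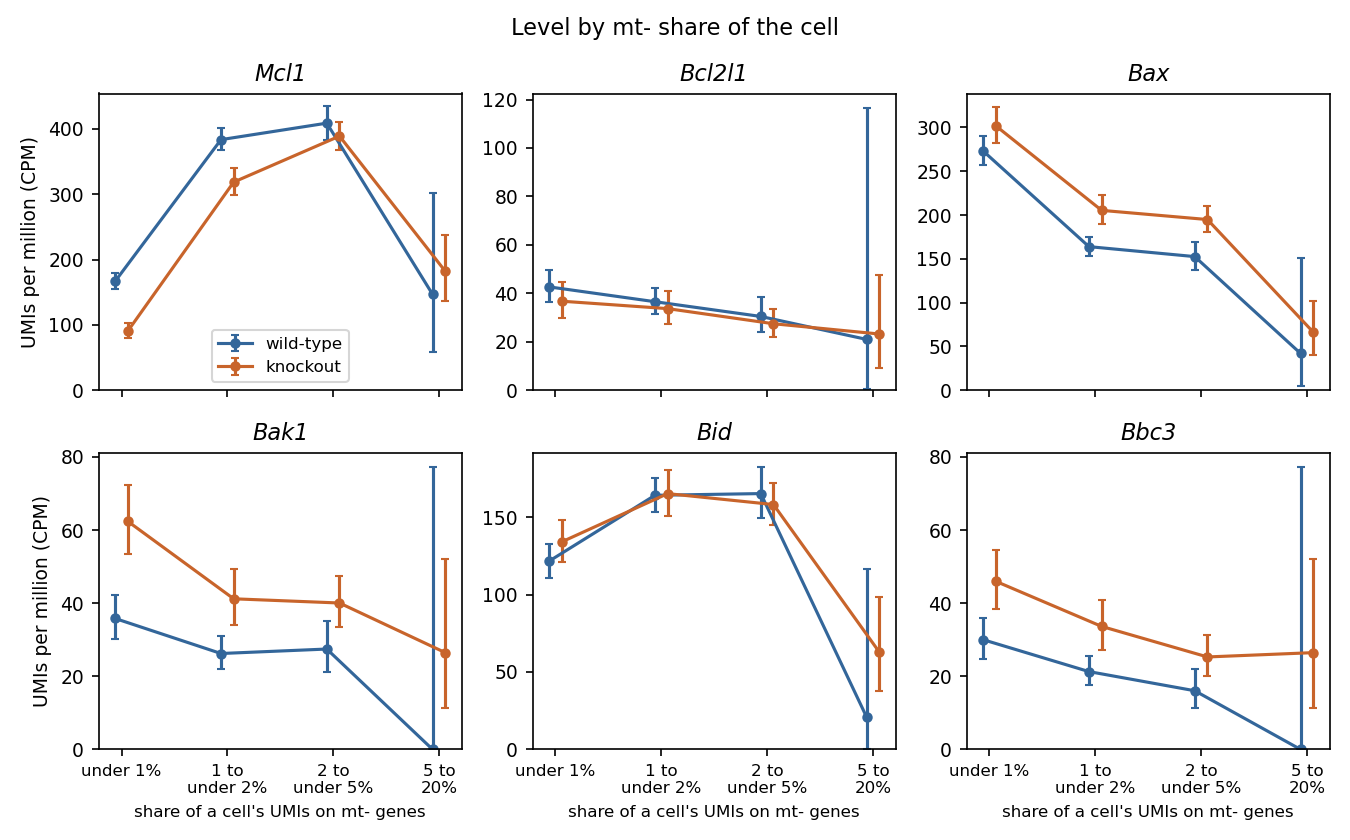
Level of the same 6 genes in cells grouped by their share of UMIs on mt- genes, in CPM with exact 95% Poisson intervals, for each library. *Mcl1* goes from 167 and 90.5 CPM under 1% to 409 and 389 CPM at 2 to under 5%, while *Bax* and *Bbc3* are highest under 1%. The wild-type points at 5 to 20% rest on 7 UMIs or fewer.

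Cells with an mt- share of 2% or more, 440 wild-type and 666 knockout cells, were set against the rest. *Mcl1* had a ratio of 1.39 (1.29 to 1.496) among wild-type cells and 1.80 (1.66 to 1.95) among knockout cells, and the knockout contrast was 1.29 times the wild-type one (1.16 to 1.44). *Bcl2l11* had 0.755 (0.421 to 1.28) among wild-type and 2.06 (1.36 to 3.13) among knockout cells. These differ by a factor of 2.72 (1.41 to 5.24), and the knockout value rests in part on the single cell described further on. The wild-type value of *Bcl2l11* was above 1 at the other limits, at 1.26 with 1% mt- and at 2.38 with 5%, the latter on 1 UMI. The knockout values at those limits were 2.61 and 2.28. *Bax* had 0.713 (0.636 to 0.798) and 0.729 (0.664 to 0.799), and *Bbc3* 0.628 (0.434 to 0.888) and 0.640 (0.496 to 0.818). *Bcl2* had 1.30 (0.858 to 1.92) and 1.78 (1.30 to 2.43). In the wild-type library 0 members reached 1.5, where 14.3% of all genes did, although *Pmaip1*, at 0.955 on 4 and 16 UMIs, stood at 2.47 without fibroblast-like cells. In that library 1 member (*Bbc3*) was at 1/1.5 or less, where 12.4% were. In the knockout library 4 members (*Mcl1*, *Bcl2*, *Bcl2l11* and *Pmaip1*) reached 1.5, where 31.2% did, and 1 (*Bbc3*) was at 1/1.5 or less, where 13.4% were. Of these 4, *Bcl2* was at 1.12 with the limit at 1% mt- and at 1.46 in cells of 5000 to 10000 UMIs, *Pmaip1* at 1.24 in cells of that depth, and *Bcl2l11* at 1.47 without cells at 0.1% collagen or more. With the limit at 5% mt- *Mcl1*, *Bcl2* and *Pmaip1* were below 1, on 55, 4 and 1 UMIs above the limit.

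Split by both shares, *Mcl1* was higher at the higher mt- share among the cells at 10% RP and over. This split does not hold the RP share fixed within a class, nor depth between classes. Under 10% RP the median depths below and above 2% mt- were 6432 and 5422 UMIs in wild-type cells, and 7493 and 2368 UMIs in knockout cells. Cells at 15% RP and over had median mt- shares of 0.180% (wild-type) and 0.266% (knockout), with *Mcl1* at 78.7 and 58.5 CPM. In cells under 10% RP it stood at 396 CPM (377 to 416) below and 409 CPM (383 to 437) above 2% mt- among wild-type cells, and at 389 CPM (351 to 430) and 381 CPM (358 to 405) among knockout cells, with intervals that overlap. In cells at 10% RP and over it stood at 204 CPM (192 to 217) below and 348 CPM (275 to 434) above 2% mt- in 43 of the wild-type cells, and at 169 CPM (157 to 181) and 345 CPM (308 to 385), in 129 of the knockout cells. The lowest *Mcl1* was thus in cells rich in RP and poor in mt- mRNA, the class with the highest *Bax*, at 258 and 273 CPM.

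The scarce BH3-only genes *Bcl2l11* and *Pmaip1* were several times as frequent in the fibroblast-like cells of the wild-type library. These 41 cells had *Bcl2l11* at 41.8 CPM (24.3 to 66.9), while it stood at 7.66 CPM (6.12 to 9.46) among the other kept cells. They had *Pmaip1* at 24.6 CPM (11.8 to 45.2), against 0.890 CPM (0.427 to 1.64), and held 10 of its 20 UMIs. *Bcl2* (27.03 against 11.3 CPM), *Bcl2l1* (71.3 against 36.1 CPM) and *Bak1* (51.6 against 28.8 CPM) were higher in them as well, while *Bid* (71.3 against 152 CPM) and *Mcl1* (211 against 318 CPM) were lower. In the knockout library the 21 fibroblast-like cells had 1 UMI each of *Bcl2l11* and *Pmaip1* and none of *Bcl2*, which allows up to 27.6 CPM.

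**Figure D5:**
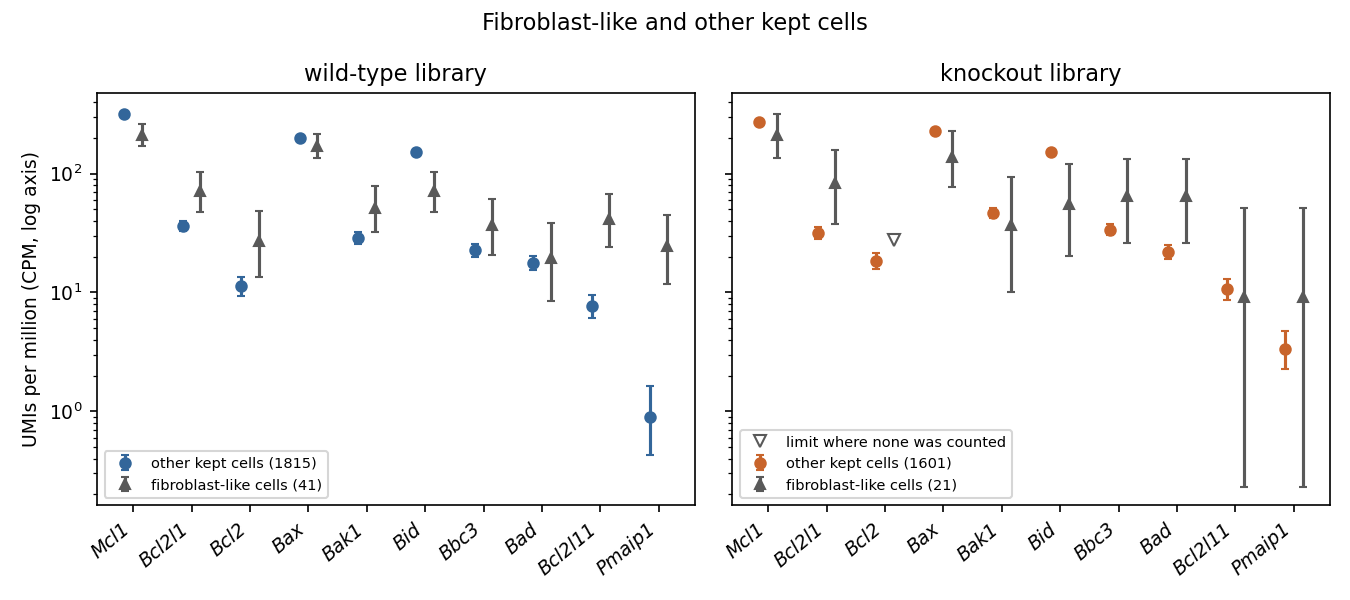
Level of each gene in fibroblast-like cells (triangles) and in the other kept cells (circles) of each library, in CPM on a log axis with exact 95% Poisson intervals. An open triangle marks the limit that a count of 0 allows. In the wild-type library *Bcl2l11* and *Pmaip1* lie at 41.8 and 24.6 CPM in the 41 fibroblast-like cells, against 7.66 and 0.890 CPM in the others.

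In the knockout library 1 cell, of 18430 UMIs, held 14 of the 99 *Bcl2l11* UMIs, 8 of the 32 *Pmaip1* UMIs and 3 of the 170 *Bcl2* UMIs. Its ES markers summed to 88 UMIs, 4775 CPM, close to the sum over the library, but 85 of these were *Klf4*, which fibroblast-like cells also had, with 1 UMI of *Pou5f1*, 2 of *Dppa5a* and 0 of *Sox2* and *Nanog*. Its fibroblast markers summed to 148 UMIs, 8030.4 CPM, 34 of them *Col1a1*, against 1258 CPM over the library. Its collagen share of 0.244% kept it below the limit for fibroblast-like cells. Without the cell that held the most UMIs of the gene in each library, the ratio of knockout over wild-type was 1.05 for *Bcl2l11* and 1.66 for *Pmaip1*. Without all cells at 0.1% collagen or more it was 1.19 and 3.12, the latter resting on 9 wild-type and 23 knockout UMIs. The ratio of *Bcl2l11* in mt- rich over other knockout cells, 2.06 (1.36 to 3.13), became 1.55 without that cell, and that of *Pmaip1*, 3.01 (1.39 to 6.92), became 1.87. Their ratios in cells under 10% RP, 1.501 (0.991 to 2.27) and 4.60 (2.00 to 11.8) in the knockout library, became 1.08 and 3.08. In the wild-type library *Bcl2l11* had 1.26 (0.838 to 1.92) and *Pmaip1*, on 16 and 4 UMIs, 3.34 (1.08 to 13.7).

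Per cell, the counts are sparse. A kept cell had a UMI of 3 members in the median in wild-type and of 2 in knockout cells, and of at most 8 and 7. No member had a UMI in 9.48% (8.19 to 10.9) of wild-type cells, while 22.4% (20.4 to 24.5) of the knockout cells had none. Among cells of 5000 to under 10000 UMIs these shares were 0.768% (8 of 1042 cells) and 0.789% (4 of 507 cells). Of the wild-type cells 70.2% (68.0 to 72.2) had a *Mcl1* UMI, and of the knockout cells 47.6% (45.1 to 50.1) did. With each cell taken at 500 UMIs these shares were 13.7% and 9.62%. A *Bax* UMI was found in 62.7% (60.5 to 64.9) and 56.7% (54.3 to 59.1), or 9.06% and 10.01% at 500 UMIs, the reverse order. In fibroblast-like cells, at median depths of 9273 and 2295 UMIs, a *Mcl1* UMI was found in 82.9% and 23.8% of cells, or 11.7% and 6.67% at 500 UMIs. These genes are expressed in most cell types, so no cell here serves as a blank for them.

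The neighbours of the members in the pathway were taken as lists. Of 13 other Bcl2 family genes, 7 had 50 UMIs, 1 of them (*Bmf*, on 21 wild-type and 35 knockout UMIs) only through the library where it was high. Of the other 6, 2 reached 1.5, where 10.5% of all genes and 17.6% of those with 50 to under 200 UMIs did, and 0 were at 1/1.5 or less, where 9.56% were. Both had under 200 UMIs. *Bcl2l2*, which encodes the survival protein BCL-W, had a ratio of 1.67 (1.19 to 2.36) and *Bok*, an effector relative named here for its value, 1.60 (1.07 to 2.40). *Bmf*, a BH3-only gene, had 2.08 (1.18 to 3.75). At the other end *Hrk*, a BH3-only gene, had 0.738 (0.499 to 1.08) and *Bcl2l12* 1.04 (0.829 to 1.30). Of the 7, *Bcl2l13* was the most abundant at 29.4 and 34.5 CPM.

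Downstream of the mitochondria, the median ratio of the caspase cascade genes and of their inhibitors was below 1. Of 11 cascade genes with 50 UMIs the interval lay above 1 for 1, against 25.0% of all genes, and below 1 for 3, against 22.3%, a share close to the background. The median ratio was 0.855. The 1 above was *Dffb*, the nuclease that cuts DNA between nucleosomes, with 1.67 (1.32 to 2.13). *Cycs*, which encodes cytochrome c, had 0.792 (0.755 to 0.831) and *Parp1*, a substrate of caspases, 0.855 (0.819 to 0.893), and both are named for their values. Of 4 genes of proteins released from the mitochondria, *Aifm1* was at 46.8 and 20.98 CPM, a ratio of 0.448 (0.379 to 0.529), while the other 3 (*Diablo*, *Htra2* and *Endog*) had intervals above 1, as 25.0% of all genes did. AIF, its product, can carry cell death without caspases and also serves the respiratory chain. Among 5 caspase inhibitors, with a median of 0.793, *Xiap* had 0.656 (0.562 to 0.764) and *Birc6* 0.634 (0.593 to 0.679), and *Birc5*, which also serves in cell division and is named for its value, had 1.25 (1.16 to 1.34). Of 7 genes of the death receptor arm 6 had 50 UMIs, and 0 of these reached 1.5 or were at 1/1.5 or less, where 10.5% and 9.56% of all genes did. The interval lay above 1 for 2 of them, against 25.0%. The one below that minimum was *Fas*, a death receptor, with 32 wild-type and 5 knockout UMIs and a ratio of 0.195 (0.0592 to 0.503), named for its value. Ratios of the list genes, *Fas* among them, were not computed without the fibroblast-like cells. *Tnfrsf10b* had 1.38 (1.17 to 1.63), *Cflar*, an inhibitor of caspase-8, 1.37 (1.24 to 1.51), *Tnfrsf1a* 1.10 (0.801 to 1.52) and *Ripk1* 0.901 (0.712 to 1.14).

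The genes that regulate the members' proteins had ratios mostly below 1. Of 10 measured, 0 passed 1.5-fold (10.5% of all genes upwards and 9.56% downwards), 7 had an interval below 1, against 22.3%, and 0 above 1, against 25.0%. Most of these genes are abundant, which narrows their intervals. The median ratio over all genes was 0.981 at 1000 to under 5000 UMIs and 1.004 at 5000 UMIs and over, the range that holds 4 of the 10. The lowest were *Usp9x*, the deubiquitinase that stabilizes MCL1, at 0.765 (0.717 to 0.816), and *Fbxw7*, at 0.80002 (0.703 to 0.910), part of a ligase that marks MCL1 for degradation. The highest were *Foxo3*, a transcription factor for *Bcl2l11* and *Bbc3*, at 1.25 (0.999 to 1.55), and *Mtch2*, a mitochondrial receptor of BID, at 1.06 (0.993 to 1.14).

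The ratios of the p53 pathway lay on both sides of 1. Of 16 genes with 50 UMIs, 0 passed 1.5-fold (10.5% of all genes upwards and 9.56% downwards), 5 had an interval above 1, against 25.0% of all genes, and 4 below it, against 22.3%, with a median of 1.02. Both counts are near the background. *Aen* had 1.47 (1.34 to 1.61) and *Tnfrsf10b* 1.38 (1.17 to 1.63), whereas *Trp53inp1* had 0.709 (0.624 to 0.804) and *Cdkn1a*, the cell cycle inhibitor p21, 0.714 (0.677 to 0.753). *Trp53* itself stood at 576 CPM in both libraries. *Bbc3*, at 1.48, was thus just above *Aen*, the highest of this list, and *Bax*, at 1.14, inside it.

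Over cells of at least 5000 UMIs (1234 wild-type, 821 knockout), the genes most alike to each member were listed by the mean of the within-library Pearson correlations of log counts per 10000 UMIs, over 6557 genes. For *Mcl1* these were *Ywhaz* (mean r of 0.558), *Npm1* (0.542) and *mt-Nd1* (0.542), and for *Bax* they were *Rps18* (0.254), *Rplp1* (0.244) and *Rps2-ps10* (0.243), a ribosomal protein pseudogene that can share reads with *Rps2*. For *Bid* they were *Ran* (0.171), *Pcbp1* (0.169) and *Hnrnpf* (0.166), and for *Bad* *Prdx2* (0.155), *Rplp0* and *Carhsp1* (both 0.116). The highest values of *Bak1*, *Bcl2l1* and *Bbc3* were under 0.12 and are weak. Between 2 of the 7 members with 200 UMIs in each library (all but *Bcl2*, *Bcl2l11* and *Pmaip1*), r ran from -0.217 to 0.098, with *Bax* and *Mcl1* lowest at -0.217 among wild-type cells and -0.135 among knockout cells. These values are descriptions over cells that share a library, and the depth and RP share of the cells move with them.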

How the data were processed

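Raw UMI counts per gene and barcode were used, as deposited, with 1 file per library. The authors made them with a published inDrop pipeline, and the labels name the mm10 build and Seurat 2.3.4. The aligner and the gene annotation are not given in the sources used here. The ambiguous UMIs in the files were at most 3 per member and were not added. Barcodes are numbered in each file, so sharing of barcodes between libraries could not be counted. Versioned Ensembl identifiers were matched to GENCODE M21 without version (54079 of 54146). The members and all lists were chosen with earlier results of these data known.

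Cells were kept as in the methods, at 500 UMIs and 20% mt- share, and doublets (Scrublet, 27 wild-type and 18 knockout cells) were kept in the main values. RP genes were 87 protein-coding genes, and 37 mt- genes were used. Counts were summed per library or bin. A gene was compared between libraries with 50 UMIs over both, and within a library with 50 UMIs in it, which 9 members reached (*Pmaip1* did not). A ratio of 1.5 or 1/1.5 was the limit for a count of genes. Named genes are the 10 members, and in each list those with 200 UMIs past 1.5-fold or else the highest and lowest 2. *Bok*, *Bcl2l13*, *Cycs*, *Parp1*, *Birc5*, *Diablo*, *Htra2*, *Endog*, *Fas*, *Trp53* and *Ywhaz* fall outside this rule and were named after their values were seen. The 3 genes most like a member were found for members with 200 UMIs in each library.

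The ratio, its interval and the calls were checked before use on simulated counts, drawn from the Poisson model that the intervals assume. That check does not cover the spread between cells or cultures, and no gene as scarce as *Pmaip1* was changed in it. Alternatives to the cell limits, denominator, depth, doublets, fibroblast-like cells and limits of the shares were computed. Doublets were called with scanpy 1.11.5 and anndata 0.12.19, intervals computed with scipy 1.17.1, tables handled with pandas 2.3.3 and numpy 2.4.6 under Python 3.11.15, and figures drawn with matplotlib 3.10.9.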

Additional observations from a re-analysis of the deposited data

Results flagged for a closer look

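Barcodes under 500 UMIs, which entered only the alternative without a minimum of UMIs, held UMIs of all 10 members. In the wild-type library 2472 such barcodes held 310 member UMIs, 706 CPM (630 to 789), and in the knockout library 4423 held 478, 710 CPM (648 to 777), so the family was counted there at a level not far below that of kept cells. *Bid* stood at 232 CPM (189 to 282) and 275 CPM (237 to 317) in them, above its 149 and 149.99 CPM in kept cells, and *Bax* at 107 CPM (78.7 to 142) and 119 CPM (94.2 to 148), below its 198 and 226 CPM. *Mcl1* stood at 255 CPM (210 to 307) and 227 CPM (193 to 266). Whether these are free RNA or damaged cells was not tested.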

How the results depend on the processing

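Of 130 values of the members' knockout over wild-type ratio under 13 alternatives, 124 stayed within the main interval, 6 left it and 0 of the ratios past 1.5 turned below 1. The call at 1.5 was lost for *Bcl2* under 4 alternatives (lowest 1.40), gained for *Bbc3* under 3 (highest 1.67) and for *Bad* under 1 (1.52), and kept for *Bak1*. *Pmaip1*, on 20 and 32 UMIs, passed the minimum only through the library where it was high, so its ratio is not counted as a call. The 6 were *Pmaip1* at 3.77 without fibroblast-like cells, *Bcl2* at 2.11, *Mcl1* at 0.691 and *Bid* at 0.928 with each cell at 500 UMIs, and *Mcl1* at 0.740 and *Bid* at 0.936 in cells of 5000 to 10000 UMIs. *Bid*, at 1.01, lay on the other side of 1 under 5 alternatives. Genes past 1.5-fold numbered 1629 higher and 1478 lower, and 2743 higher and 2127 lower with a minimum of 20 UMIs, 639 and 836 with 200 UMIs, and 2536 and 1936 with each cell at 500 UMIs. The balance turned to 1344 higher and 1747 lower with median of ratios scaling, 1398 and 1951 in cells of 5000 to 10000 UMIs, and 1487 and 1650 without cells under 5% RP. The cause was not tested, apart from the minimum, which changes the genes counted. The limit of 0.1% collagen and the removal of single cells were chosen after seeing the data.

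The RP contrast gave 137 values under alternatives, of which 115 stayed within the interval, and the mt- contrast 135, of which 112 did. With the RP limit at 5%, which leaves shallow cells on one side, *Mcl1* turned to 0.486 among wild-type and 0.319 among knockout cells, and *Bcl2l11* to 0.860 among knockout cells. Among wild-type cells *Bid* went from 1.14 to 0.821 and *Bcl2* from 1.22 to 0.861, the latter on 1 UMI under the limit. With the RP limit at 15%, *Bid* went from 0.941 to 1.35 among knockout cells and *Bcl2* from 1.22 to 0.927 among wild-type cells. With the mt- limit at 5%, *Bcl2* turned to 0.721, *Mcl1* to 0.665 and *Pmaip1* to 0.965 among knockout cells, on 4, 55 and 1 UMIs above the limit. In the wild-type library *Mcl1* went from 1.39 to 0.466 and *Bid* from 1.11 to 0.140, on 7 and 1 UMIs in 44 shallow cells. Among wild-type cells *Bcl2l11* went from 0.755 to 1.26 with the mt- limit at 1% and to 2.38 at 5%. *Pmaip1* in the wild-type mt- contrast went from 0.955 to 2.47 without fibroblast-like cells and 2.96 without cells at 0.1% collagen. At the other limits *Mcl1* kept its direction, with 4.51 and 5.72 at 15% RP and 2.34 and 3.85 at 1% mt-. No paired analysis was possible because each condition has 1 library. Depth limits *Pmaip1*, *Bcl2l11* and every level in cells under 5% RP.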
